A study of Homo sapiens with 2 samples.

Results

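Classical cadherins, catenins and desmosome proteins are the 10 genes CDH1, CDH2, CTNNA1, CTNNB1, CTNND1, JUP, DSP, PKP2, DSG2 and DSC2, taken by symbol from 56558 gene symbols in an RNA sequencing table of Huh7 cells, an established human liver cancer line. The series concerns NEIL3, a DNA glycosylase, in DNA repair and in the epithelial-mesenchymal transition. It compares 1 library of Huh7 with NEIL3 knockdown (Neil3 KD in the labels) with 1 library of Huh7 carrying shGFP, the control; both came from cells at passages 5 to 8. The short hairpin against green fluorescent protein is a usual control, and the sources used here do not say how NEIL3 itself was lowered or in how many clones. Levels are in FPKM (fragments per kilobase of transcript, scaled to the mapped fragments of the library), which allows genes of different length to be compared. With 1 library per group there is no replicate error and no test, so "higher" and "lower" describe these libraries alone. Where a pair of values follows a gene, the control comes first and the knockdown second.

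Cell-cell adhesion in epithelia rests on a pair of junctions built on the same plan. In adherens junctions, classical cadherins bind cadherins of the neighbouring cell, and their tails recruit p120-catenin, beta-catenin and alpha-catenin, which lead to actin. In desmosomes, desmogleins and desmocollins bind across the gap, and plakoglobin, plakophilin and desmoplakin tie them to keratin filaments. Hepatocytes are known to carry E-cadherin together with N-cadherin, and a shift from E-cadherin to N-cadherin is a usual readout of the epithelial-mesenchymal transition. Beta-catenin is also the transcriptional arm of canonical Wnt signalling, and plakoglobin is its closest relative.

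NEIL3 stood at 5.34 FPKM with shGFP and 2.84 FPKM in the library labelled as knockdown, a ratio of 0.532. All 8 hepatocyte markers listed were at 12.3 FPKM or more in both libraries, while the 3 leukocyte markers summed to 0.599 and 0.526 FPKM. Of 3 endothelial markers 1 reached 1 FPKM. The 4 fibroblast markers summed to 14.8 and 13.3 FPKM and the 3 cholangiocyte markers, SOX9 foremost, to 121 and 127 FPKM. Of the 8 hepatocyte markers 7 had a log2 ratio (1 FPKM added) above 0, with a list median of 0.40. Of the 14209 symbols with 1 FPKM or more in at least 1 library, 53.0% were above 0. AFP, at 12.3 and 59.8 FPKM, and SERPINA1, at 226 and 367 FPKM, were past 1.5-fold upward, as were 4.55% of those symbols. ALB was slightly lower at a ratio of 0.945. The part of the hepatocyte marker shift in the values of the junction genes was not tested. Mitochondrial transcripts made up 23.1% and 26.3% of the FPKM sum.

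Of the 10 junction genes 9 lay within 1.5-fold between the libraries, as did 12925 of the 14209 symbols analysed. The widest differences among the 10 ran in opposite directions. All 10 were detected, from 3.39 to 119 FPKM, and none was at the floor of the table. CDH1 and DSP were higher in the knockdown library, JUP and CDH2 were lower, and CTNNB1, CTNND1, DSG2 and DSC2 were within 5% of equality. On the scale used for all counts, log2 of knockdown over control with 1 FPKM added to both, 1 member (CDH1) was past 1.5-fold upward and 0 were past it downward. Over the 14209 symbols with 1 FPKM or more in at least 1 library, 4.55% were past 1.5-fold upward and 4.48% downward. By the plain ratio, without the added 1 FPKM, the members again counted 1 higher and 0 lower, against 7.08% and 7.56% of all symbols. Among symbols at 5 FPKM or more in 1 library, a limit all 10 members pass, the shares were 3.95% and 3.18%. CDH1, at 3.39 and 5.89 FPKM, passed that limit through the knockdown library alone. The 5 FPKM limit thus favours its upward count, and nothing is read from that comparison. At a looser limit of 1.25-fold, chosen after the values were seen, 2 members (CDH1 and DSP) were higher and 1 (JUP) lower, against 13.6% and 12.3% of all symbols. With 10 genes, counts this small cannot be told apart from these background shares.

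The members' log2 ratios ran from -0.41 to 0.65 with a median of -0.02, and the median of all symbols was 0.02. Of the members 3 were above 0 and 7 below, beside 53.0% of all symbols above 0. A plain ratio within 5% of 1 was found for 4 of 10, as for 19.0% of all symbols. In the authors' deposited table, whose test sets these libraries and not the conditions against each other, the q-value of each of the 10 members is 0.9996. NEIL3 itself, at a ratio of 0.532, has the same q-value there, and 13 of the 58220 genes are under 0.05. These q-values therefore do not show that the members were equal.

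**Figure D1:**
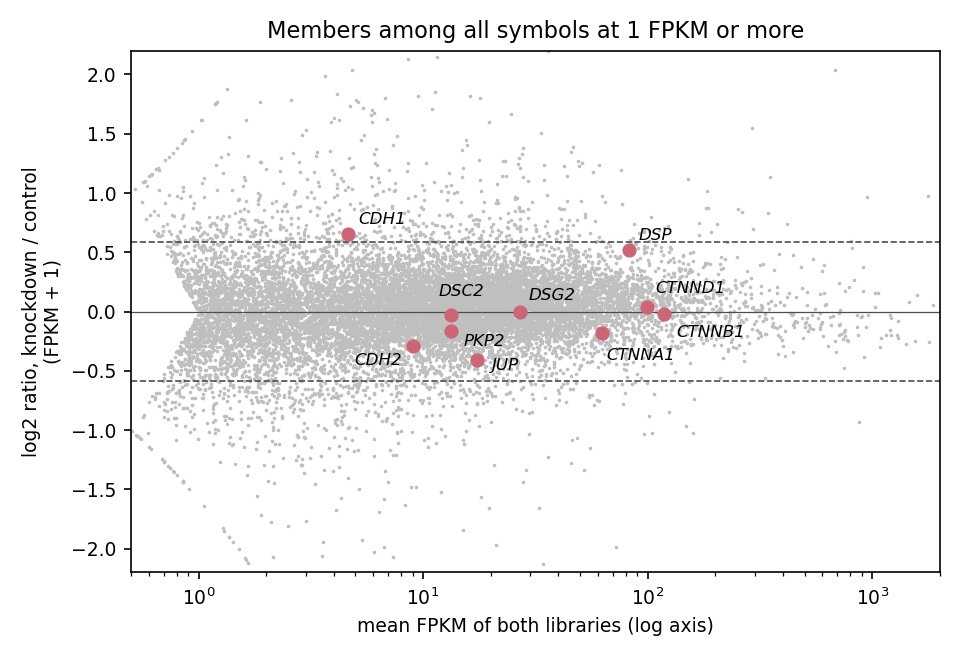
Each grey point is 1 of the 14209 symbols, with mean FPKM of both libraries on the log x axis and the log2 ratio of knockdown to control (FPKM + 1) on the y axis; red points are the 10 members and dashed lines mark 1.5-fold. CDH1 alone lies past a dashed line at 0.65, DSP is just under it at 0.52, JUP is lowest at -0.41, and 62 symbols lie outside the plotted range.

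The classical cadherins differed in opposite directions. CDH1 encodes E-cadherin, the main cadherin of epithelia (ENSG00000039068, chromosome 16, 68737225 to 68835548, plus strand, GRCh38). It was at 3.39 FPKM with shGFP and 5.89 FPKM with NEIL3 knockdown, a plain ratio of 1.74. It was the least abundant member in both. CDH2 encodes N-cadherin (ENSG00000170558, chromosome 18, 27950966 to 28177446, minus strand), and it stood at 10.04 FPKM with shGFP and 8.02 FPKM with NEIL3 knockdown, 1.25-fold lower by the plain ratio. With 1 FPKM added, as in the counts, CDH2 was 1.22-fold lower. N-cadherin transcripts thus exceeded those of E-cadherin in both libraries, by 2.96-fold with shGFP and by 1.36-fold with NEIL3 knockdown.

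Set against each other within a library, which removes any scaling between libraries, the ratio of CDH1 to CDH2 was 0.337 with shGFP and 0.734 with NEIL3 knockdown, a change of 2.17-fold. CDH1 had the highest log2 ratio of the 10 (0.65), and CDH2 (-0.29) the lowest after JUP (-0.41). How often other gene pairs differ this much was not computed, so nothing further is read from the change of this pair. E-cadherin made up 25.2% of the summed FPKM of the pair with shGFP and 42.3% with NEIL3 knockdown. The sum itself was 13.4 and 13.9 FPKM. Of 3913 symbols whose mean FPKM was within 2-fold of that of CDH1, 157 (4.01%) had a higher log2 ratio. Of 4955 such symbols for CDH2, 630 (12.7%) had a lower one, so differences of this size were common at the level of CDH2. CDH1 is a gene of low abundance here, and with 5 FPKM added in place of 1 its log2 ratio was 0.38, under the 1.5-fold limit.

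**Figure D2:**
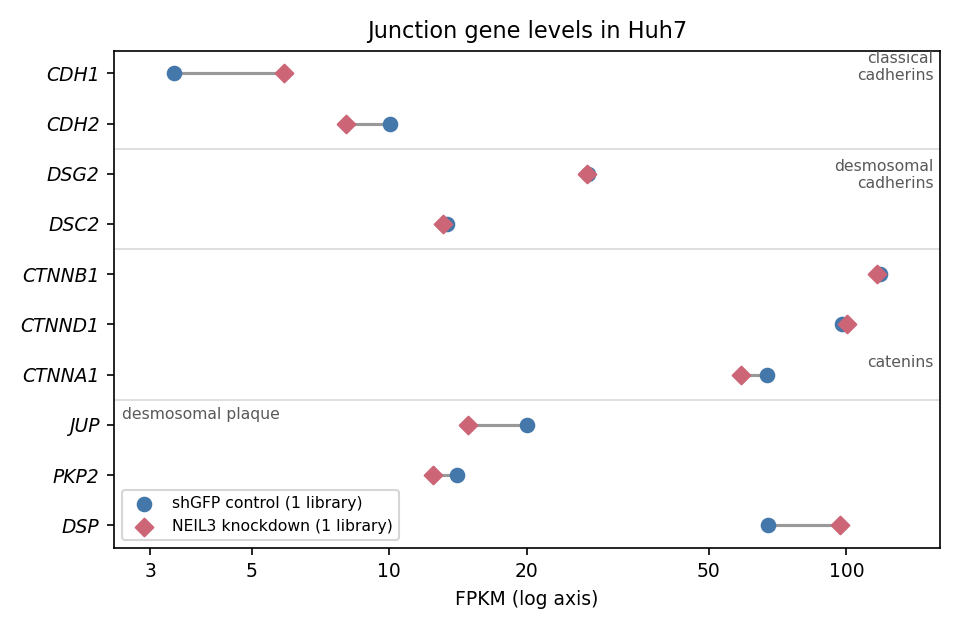
Points give the FPKM of each member (log x axis) in the single control library (blue circles) and the single knockdown library (red diamonds), grouped by role. The longest lines belong to CDH1 (3.39 and 5.89 FPKM) and DSP (67.5 and 97.0 FPKM), and the symbols of DSG2, DSC2, CTNNB1 and CTNND1 nearly coincide.

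The desmosomal cadherins were nearly equal in both libraries. DSG2, desmoglein 2, the desmoglein of simple epithelia and heart muscle (ENSG00000046604, chromosome 18, 31498043 to 31549008, plus strand), was at 27.2 and 27.0 FPKM in control and knockdown. DSC2, desmocollin 2 (ENSG00000134755, chromosome 18, 31058840 to 31102415, minus strand), was at 13.4 and 13.1 FPKM. Desmoglein transcripts exceeded desmocollin transcripts by 2.03-fold with shGFP and by 2.06-fold with NEIL3 knockdown. The sum of the 4 cadherins, classical and desmosomal, was 54.01 FPKM with shGFP and 54.10 FPKM with NEIL3 knockdown, and the desmosomal pair made up most of it in both.

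DSG2 and DSC2 are the broadly expressed genes of a cluster that also holds the desmogleins and desmocollins of stratified epithelia. From the end of DSC2 nearest to DSC3 to the far end of DSG2 the stretch spans 490 kb. Of the genes between or beside them, DSC3 was at 0.702 and 0.859 FPKM, DSG1, DSG3 and DSG4 were under 0.1 FPKM in both libraries, and DSC1 was listed at the floor in both. Within 200 kb on either side, 4 of 22 annotated genes reached 1 FPKM in a library. Besides DSG2 and DSC2 these were TTR, which encodes the thyroid hormone carrier transthyretin, and B4GALT6, a galactosyltransferase of glycolipid synthesis. TTR starts 42.7 kb beyond DSG2 on the same strand and was at 1.65 and 7.81 FPKM, 4.74-fold higher, beside a DSG2 ratio of 0.995. B4GALT6, the next gene, was at 3.36 and 3.63 FPKM.

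**Figure D3:**
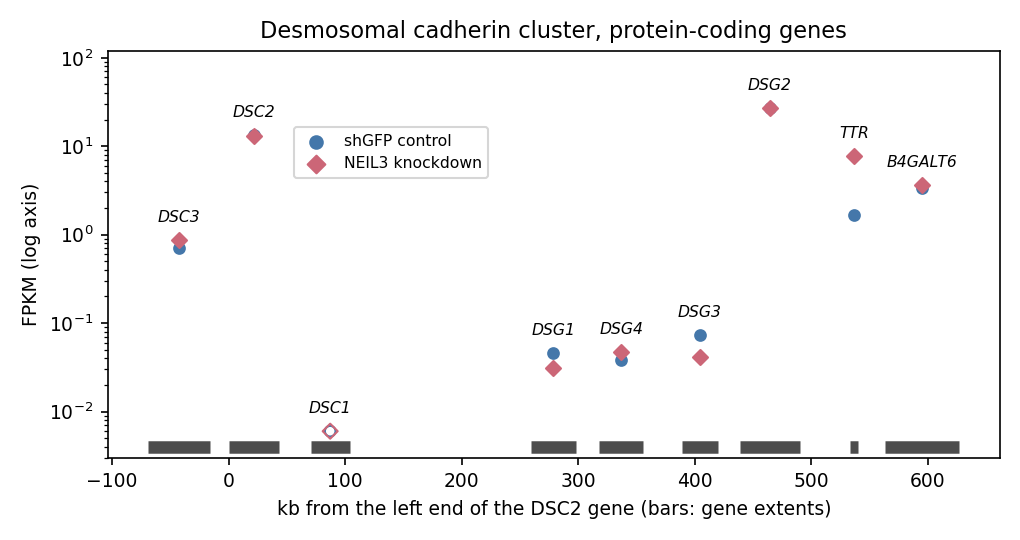
FPKM (log y axis) of the protein-coding genes of the desmosomal cadherin cluster and its neighbours is plotted at each gene's midpoint, in kb from the left end of DSC2, for the control (blue circles) and the knockdown library (red diamonds), with black bars for gene extents; open symbols are genes listed at the floor, drawn at the bottom. DSG2 and DSC2 symbols coincide, while TTR stands at 1.65 and 7.81 FPKM.

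CDH1 lies in a similar tandem arrangement with CDH3, the gene of P-cadherin, which ends 14.6 kb before it and was at 0.455 and 0.362 FPKM. Of 21 annotated genes within 200 kb of CDH1, with CDH1 itself counted, 3 reached 1 FPKM: CDH1, TANGO6 and ZFP90. TANGO6, a gene for a transport factor that starts 8.06 kb beyond CDH1, was at 4.28 and 4.83 FPKM. ZFP90, a zinc finger gene 161 kb before CDH1, was lower at 13.8 and 9.76 FPKM. The higher level of CDH1 in the knockdown library was therefore not shared by the other measured genes of its neighbourhood to the same extent, with plain ratios of 1.13 for TANGO6 and 0.706 for ZFP90.

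The catenins of adherens junctions were among the 4 most abundant members in both libraries, together with DSP. CTNNB1 and CTNND1 were within 5% of equality, and CTNNA1 was somewhat lower in the knockdown library. CTNNB1, beta-catenin (ENSG00000168036, chromosome 3, 41194837 to 41260096, plus strand), was the highest of the 10 in both libraries at 119 and 117 FPKM, a ratio of 0.984. CTNND1, p120-catenin, which binds the membrane-near part of the cadherin tail and holds cadherins at the surface (ENSG00000198561, chromosome 11, 57753243 to 57819546, plus strand), was at 97.8 and 100.2 FPKM. CTNNA1, alpha-catenin, the link to actin (ENSG00000044115, chromosome 5, 138610967 to 138935034, plus strand), was at 66.9 and 58.9 FPKM, a ratio of 0.880. For CTNNA1, 367 of 2430 symbols of similar level (15.1%) had a lower log2 ratio.

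The direction of CTNND1 is not settled by these values. Its log2 ratio was 0.03 as deposited and -0.0033 when the libraries were rescaled to a median log2 ratio of 0, and no other member changed sign under any scaling or pseudocount tried. A readthrough gene, TMX2-CTNND1, overlaps it on the same strand, and fragments from shared exons cannot be assigned to one of them with certainty. TMX2-CTNND1 was listed at 0.412 and 2.17 FPKM, and with it added CTNND1 came to 98.2 and 102.4 FPKM, a ratio of 1.04. Of all 16 annotated genes that overlap a member, 14 were under 1 FPKM in both libraries; the others were TMX2-CTNND1 and ULK4, on the strand opposite to CTNNB1, at 1.46 and 1.93 FPKM.

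Set beside the cadherins, the catenins were in excess in both libraries. The sum of CTNNA1, CTNNB1 and CTNND1 was 283 FPKM with shGFP and 276 FPKM with NEIL3 knockdown, against 13.4 and 13.9 FPKM for CDH1 and CDH2 together. The ratio of CTNNA1 to CTNNB1 was 0.564 and 0.504. These are transcript levels, and the amounts of protein were not measured here.

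The plaque proteins of the desmosome differed in direction. DSP encodes desmoplakin, the plakin that anchors keratin filaments (ENSG00000096696, chromosome 6, 7541575 to 7586717, plus strand). It was at 67.5 FPKM with shGFP and 97.0 FPKM with NEIL3 knockdown, a ratio of 1.44 and, at 29.5 FPKM, the widest gap of the 10 in FPKM. Of 1806 symbols of similar level, 74 (4.10%) had a higher log2 ratio. JUP encodes plakoglobin, which is shared by desmosomes and adherens junctions (ENSG00000173801, chromosome 17, 41754604 to 41786931, minus strand). It was at 20.04 FPKM with shGFP and 14.9 FPKM with NEIL3 knockdown, 1.35-fold lower, and 279 of 5363 symbols of similar level (5.20%) had a lower log2 ratio.

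PKP2, plakophilin 2, the plakophilin of simple epithelia and heart (ENSG00000057294, chromosome 12, 32790745 to 32896840, minus strand), was at 14.1 and 12.5 FPKM, a ratio of 0.885. The ratio of DSP to JUP was 3.37 with shGFP and 6.52 with NEIL3 knockdown, a change of 1.94-fold. That of DSP to PKP2 was 4.80 and 7.79. Among the plaque genes DSP had the highest log2 ratio (0.52) and JUP the lowest (-0.41). A wide change of DSP over JUP therefore followed from the choice of this pair. Neither DSP ratio was recomputed with other pseudocounts or set against other gene pairs, so nothing further is read from them. The ratio of JUP to its relative CTNNB1 was 0.169 and 0.127, so beta-catenin transcripts exceeded plakoglobin transcripts by 5.92-fold with shGFP and 7.85-fold with NEIL3 knockdown. Because DSP dominates the sum, JUP, PKP2 and DSP together came to 102 and 124 FPKM although JUP and PKP2 were lower.

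The order of the members by level was nearly the same in both libraries. It ran CTNNB1, CTNND1, DSP, CTNNA1, DSG2 and JUP from the top, and CDH2 and CDH1 at the bottom. PKP2 and DSC2, which lay within 1 FPKM of each other in both, exchanged the seventh and eighth places. In the control DSP and CTNNA1, at 67.5 and 66.9 FPKM, could not be ordered with any confidence without replicates.

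Promoter sequences were available for 7 of the 10 members, as 13 RefSeq entries (GRCh38.p14) that run from 250 bases before to 50 after an annotated start. There were none for CDH1, CTNND1 and PKP2. The sequences were searched for the E-box CAGGTG on both strands, where the other strand reads CACCTG, the site that repressors of the Snail and ZEB families are known to bind. Of 35116 promoter entries of all genes, 20.6% hold at least 1 and 3.49% hold 2 or more. Among the members, 4 of 13 entries hold at least 1 (DSP, JUP, DSG2 and DSC2) and 3 hold 2. These 3 are shown, with the E-boxes in capitals, because they are the member entries with more than 1.

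DSP, chr6:7541421-7541720, plus strand: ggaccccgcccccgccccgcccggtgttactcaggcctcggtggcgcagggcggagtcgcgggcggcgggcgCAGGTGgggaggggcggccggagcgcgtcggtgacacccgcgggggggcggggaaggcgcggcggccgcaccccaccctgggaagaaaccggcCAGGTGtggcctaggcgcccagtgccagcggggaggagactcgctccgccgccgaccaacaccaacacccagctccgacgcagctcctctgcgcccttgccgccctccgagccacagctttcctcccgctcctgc
JUP, chr17:41785927-41786226, minus strand: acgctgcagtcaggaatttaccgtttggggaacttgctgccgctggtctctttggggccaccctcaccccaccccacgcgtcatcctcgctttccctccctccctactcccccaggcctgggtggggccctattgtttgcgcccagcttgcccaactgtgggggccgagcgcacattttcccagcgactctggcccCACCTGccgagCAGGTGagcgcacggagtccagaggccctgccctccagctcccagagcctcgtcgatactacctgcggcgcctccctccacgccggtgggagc
DSG2, chr18:31497927-31498226, plus strand: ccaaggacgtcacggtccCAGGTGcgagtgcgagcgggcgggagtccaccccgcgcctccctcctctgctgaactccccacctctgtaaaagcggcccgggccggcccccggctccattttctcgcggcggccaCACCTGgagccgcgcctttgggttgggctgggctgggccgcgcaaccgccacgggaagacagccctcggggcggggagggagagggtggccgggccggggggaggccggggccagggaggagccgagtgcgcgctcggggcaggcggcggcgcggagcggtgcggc

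The E-boxes of DSP begin 178 and 85 bases upstream of the start, those of DSG2 232 and 116 bases upstream. In JUP they begin 54 and 43 bases upstream of the more downstream of its annotated starts, and the other JUP entry holds none. DSP, DSG2 and JUP had plain ratios of 1.44, 0.995 and 0.743. With 3 genes, nothing is read from these windows about the direction of a member.

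Of the factors that bind such sites and are known to repress CDH1, 3 of 6 listed reached 1 FPKM. SNAI1, Snail, was at 6.44 and 3.41 FPKM, a ratio of 0.529, the single gene of the list past 1.5-fold downward. Of all symbols 4.48% were past it downward, and with 3 genes measured the count cannot be told apart from that share. With 5 FPKM added in place of 1 the log2 ratio of SNAI1 was -0.44, within the limit. ZEB1 was at 10.3 and 9.16 FPKM and TCF3, which encodes E-box binding factors, at 43.0 and 39.0 FPKM. SNAI2, ZEB2 and TWIST1 were under 1 FPKM in both libraries. The lower SNAI1 and the higher CDH1 stand in the same pair of libraries, and a link between them was not tested.

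Of 11 other desmosome genes, 5 reached 1 FPKM, and 4 of these had a log2 ratio above 0, against 53.0% of all symbols. The list median was 0.26, with 1 gene past 1.5-fold upward and 0 downward, against 4.55% and 4.48% of all symbols. EVPL, envoplakin, a plakin known from the cornified envelope of skin, was at 4.61 and 10.4 FPKM, 2.26-fold higher. PERP, a membrane protein of desmosomes and a p53 target, was at 96.8 and 124.9 FPKM. PKP4, a plakophilin relative also called p0071, was at 36.6 and 43.9 FPKM. The plakins EVPL and DSP were both higher, while PPL (periplakin), a further plakin named after its values were seen, was at 3.68 and 3.07 FPKM.

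Of the 4 measured keratins that attach to desmosomes, KRT8 and KRT18 were higher, while KRT19 (30.1 and 32.1 FPKM) and KRT7 (1.72 and 1.65 FPKM) had ratios of 1.07 and 0.961. KRT8 and KRT18 are the partner keratins of simple epithelia. KRT8 was at 181 and 272 FPKM, a ratio of 1.501, and KRT18 at 90.2 and 147 FPKM, a ratio of 1.63. Their ratio to each other was 0.498 and 0.542 (KRT18 over KRT8). Of 6 keratins listed 4 were measured. On the counting scale 1 (KRT18) was at least 1.5-fold higher and 0 were lower, against 4.55% and 4.48% of all symbols. KRT8 was just under the limit at 0.583 against KRT18 at 0.70. Both genes overlap at their ends on opposite strands and have many pseudogenes, so their values are uncertain.

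**Figure D4:**
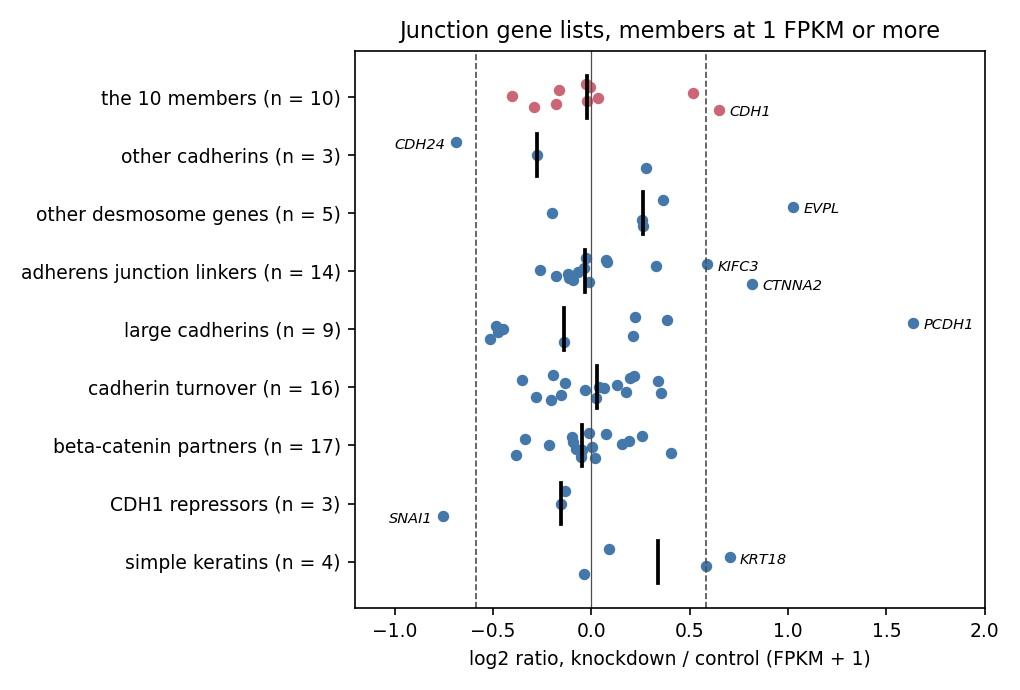
Each point is a gene at 1 FPKM or more in at least 1 library, with the log2 ratio of knockdown to control (FPKM + 1) on the x axis and its list on the y axis; black bars are list medians and dashed lines mark 1.5-fold. The members (red) span -0.41 to 0.65 around a median of -0.02, and PCDH1 (1.63) and EVPL (1.03) lie furthest right among the adhesion, repressor and keratin lists plotted, which leave out the hepatocyte and other cell type markers.

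Of 17 other linkers of adherens junctions 14 were measured, with a median log2 ratio of -0.03, 2 genes past 1.5-fold upward and 0 downward. Of all symbols 4.55% were past it upward and 4.48% downward. After either rescaling 1 of the 14 was past it upward. AFDN, afadin, which ties nectins to actin, was at 70.1 and 61.7 FPKM, and NECTIN2 at 63.8 and 60.8 FPKM. CTNNA2, the alpha-catenin of neurons, was at 0.342 and 1.36 FPKM, far below CTNNA1. It met the 1 FPKM limit through the knockdown library alone, so the filter favours its upward count and nothing is read from it. KIFC3, a motor that moves along microtubules anchored at junctions, was at 19.6 and 29.9 FPKM, and its log2 ratio of 0.59 was 0.56 or 0.55 after the rescalings, under the limit.

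Few other cadherins were measured. Of 20 further classical and related cadherins 17 were under 1 FPKM in both libraries. CDH17, liver-intestine cadherin, was at 3.27 and 2.52 FPKM. CDH24, a type II cadherin, was at 3.35 and 1.699 FPKM, 1.97-fold lower, and CDH16, kidney cadherin, at 0.965 and 1.38 FPKM. CDH16 met the 1 FPKM limit through the knockdown library alone, so nothing is read from its direction. CDH5, the cadherin of endothelium, was at 0.205 and 0.276 FPKM. E-cadherin and N-cadherin were thus the most abundant of the classical cadherins in the knockdown library, and in the control CDH1 at 3.39 FPKM was level with CDH24 and CDH17.

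Of 26 large cadherins 9 were measured, with a median log2 ratio of -0.14, and on the counting scale 1 lay past 1.5-fold upward and 0 downward. The shares of all symbols were 4.55% and 4.48%. PCDH1, protocadherin 1, was at 1.45 and 6.61 FPKM, 4.56-fold higher. CELSR1, a planar polarity cadherin, was at 6.08 and 3.95 FPKM, 1.54-fold lower by the plain ratio. FAT1, a giant cadherin, was the most abundant at 90.8 and 82.4 FPKM, followed by CLSTN1, calsyntenin 1, at 58.8 and 42.7 FPKM.

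Genes that act on the members after transcription were counted in the same way. Of 17 genes for shedding, endocytosis and recycling of cadherins, 16 were measured and 0 were 1.5-fold apart on the counting scale, with a median of 0.03. With so few genes this count cannot be told apart from the 4.55% and 4.48% of all symbols past that limit. ADAM10, the sheddase of E-cadherin and N-cadherin, was at 111 and 96.3 FPKM, and RAB11A, a GTPase of recycling endosomes, at 143 and 140.4 FPKM. PSEN2, a gamma-secretase subunit, was at 4.58 and 6.13 FPKM. LNX1, a ubiquitin ligase, was at 1.62 and 1.054 FPKM, 1.54-fold lower by the plain ratio. FLOT1 was listed at the floor in both libraries, beside its relative FLOT2 at 37.9 and 33.0 FPKM. Why FLOT1 has this value was not tested, so it is not read as absence of the transcript.

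Of 20 genes that degrade beta-catenin or act with it in the nucleus, 17 were measured and 0 were 1.5-fold apart, with a median of -0.05. The same shares of all symbols, 4.55% and 4.48%, make such a count ordinary. CSNK1A1, the priming kinase of beta-catenin, was at 81.3 and 78.6 FPKM, and FBXW11, a subunit of its ubiquitin ligase, at 49.7 FPKM in both. GSK3A was at 19.1 and 25.5 FPKM. AXIN2, both a scaffold of the destruction complex and a target of beta-catenin, was at 51.2 and 39.0 FPKM, beside the near-equal CTNNB1.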

How the data were processed

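RNA was made into strand-specific libraries, 1 per group, per the labels' protocols. Tools named in the submitters' processing notes, in no stated order, are Cufflinks 2.2.1 with Cuffdiff, HISAT2 2.1.0, SAMtools 1.2, Trimmomatic 0.36 and bcl2fastq, and the build is GRCh38.p10; the sources used here give no annotation release, filters or strand setting. The deposited table lists 58220 genes with the authors' FPKM values, a ratio, its log2, a p-value and a q-value, per the file headers; undetected genes carry 1e-05. Only FPKM was analysed and q quoted.

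Each symbol kept its most abundant row. Log2 ratios used a pseudocount of 1 FPKM, which understates changes of low genes. Symbols analysed had 1 FPKM or more in at least 1 library. No test was possible and none was run; the counting was tested on simulated data. Alternatives were other pseudocounts, filters, rescalings, summed rows and another fold. The members and lists were chosen with earlier results of these data known. The text names all members, in each list genes 1.5-fold apart (at most 4, or the 2 largest ratios where fewer than 2 pass) and the 2 most abundant, and measured neighbours within 200 kb; other names were chosen after their values were seen. Promoters are RefSeq's (GRCh38.p14). The number of fragments is unknown, so no counting interval is printed. Among 6118 genes detected in both libraries at under 0.3 FPKM, the commonest ratio of knockdown to control was 1.29 (662 genes within 2%), the value of 1 fragment in each library if the knockdown had 77.5% of the control's fragments. Python 3.11.15, pandas 2.3.3 and numpy 2.4.6 were used.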

Additional observations from a re-analysis of the deposited data

How the results depend on the processing

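Of the values recomputed under each alternative, 59 of single members and 34 others stayed on their side of 1.5-fold (counts of members stayed within 1.5 times), and 1 and 4 did not. Summed rows and other filters could not move any of these values, since each member has 1 row and passes every filter tried. Those settings add to the unchanged values by construction and are no sign of stability. With a pseudocount of 5 FPKM the log2 ratio of CDH1 was 0.38 and, among genes of the related lists, those of SNAI1 (-0.44), CDH24 (-0.32), CTNNA2 (0.25) and KIFC3 (0.51) also came within 1.5-fold. Then 0 members were at least 1.5-fold higher in place of 1. The change of the CDH1 to CDH2 ratio was then 0.58 on the log2 scale, just under the limit, in place of 0.94 with 1 FPKM added. Without a pseudocount it was 1.12, the 2.17-fold change given above. A larger pseudocount shrinks low genes by construction. At 1.25-fold, added after the data were seen, 2 members were higher and 1 lower. The count of lower members was otherwise 0 throughout. The median log2 ratio of the members ran from -0.06 to -0.02. The ratio of JUP to CTNNB1 changed by -0.41 to -0.31, and that of DSG2 to DSC2 by 0.01 to 0.02, both on the log2 scale. Rescaling to genes not encoded in mitochondria multiplied the knockdown values by 0.982, and rescaling to a median of 0 by 0.974. Leaving out a replicate was not possible with 1 library per group. No paired analysis was possible because each group has 1 library. CDH1 is the least abundant member, and its counting error is unknown because the depth is.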

Other observations

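The clustered protocadherins of chromosome 5, cadherin relatives expressed mainly in neurons, were looked at after the data were seen. Of 15 PCDHA, 16 PCDHB and 22 PCDHG genes, 1, 3 and 3 reached 1 FPKM in a library. On the counting scale 0 of these 7 lay past 1.5-fold, against 4.55% of all symbols upward and 4.48% downward. The summed level was 4.28 FPKM with shGFP and 2.51 with NEIL3 knockdown for PCDHA, 16.2 and 12.6 for PCDHB, and 13.6 and 14.2 for PCDHG. PCDHB3 was the most abundant in the control at 4.88 FPKM, against 4.61 with NEIL3 knockdown, and PCDHGC3 in the knockdown library at 4.88 FPKM, against 3.64 in the control. PCDHA and PCDHG genes share their last exons, so the values of single genes are uncertain. PCDHB8 had the widest log2 ratio of the 7, at 1.24 and 0.544 FPKM. PCDHB8 and PCDHA4 (1.24 and 0.871 FPKM) met the 1 FPKM limit through the control library alone. The filter favours a lower knockdown value for both, so nothing is read from their direction.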
